A study of Mus musculus with 9 samples.

Results

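The transcriptome of lung macrophages from mice that had breathed air without ozone, hereafter the air group, was described gene by gene. It held 3 of the 9 samples of the series, taken by their label, and the 6 samples from ozone-exposed mice were not compared with it. All animals were female and wild type, came from Jackson Labs and were 12 weeks old. The ozone groups had breathed 0.8 ppm for 3 h and were killed 24 h or 72 h later, whereas the air group breathed air alone, also in a whole-body chamber. Cells were washed out of the lung by bronchoalveolar lavage combined with massage of the lung, red cells were lysed, and total RNA was sequenced. No sorting step is described, so a sample is the whole lavage pellet, and fewer cells of a type cannot be told apart from less RNA per cell. The genotype, sex and supplier were shared by all groups, the strain was not given, and no group carried a transgene or deletion.

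Alveolar macrophages are the resident phagocytes of the air spaces. They renew themselves locally, depend on GM-CSF made by the epithelium and on the nuclear receptor PPARγ that it induces, take up and break down spent surfactant, and clear inhaled particles, microbes and dying cells. They are known for a high lipid and lysosomal load and for a muted response to harmless material.

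Levels are given in CPM, counts scaled so that each sample sums to the same total, in the order of air replicates 1, 2 and 3. A level of 10000 CPM is 1% of all counts. Since a long transcript gives more counts than a short one, levels of different genes are compared only in CPM per kb of annotated exon. An order of genes per kb is stated only where it also held with the longest transcript and with the mean transcript length. Medians of lists per kb use the union of exons alone, and their order under the other lengths was not computed. Means are given ± SD with n = 3. With 1 group there was nothing to test, so no p-value is given.

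The samples held 51797737, 60248305 and 60171106 counts, so 3 counts, taken here as the limit for a gene with none, were 0.0579, 0.0498 and 0.0499 CPM. A gene with a mean of 1 CPM or more is termed detected. Each sample departed from the other pair in some way. Air replicate 3 stood somewhat apart, with a median absolute log2 difference of 0.11 from the mean of the others against 0.09 for replicate 1 and 0.07 for replicate 2, over 9832 genes with a mean of 5 CPM or more. Air replicate 2 had little Xist, the X-inactivation transcript, although all animals were described as female. Short transcripts lay higher in replicate 3 and lower in replicate 1: in the shortest of 5 length classes the median log2 deviation from the mean of the 3 was -0.06, -0.02 and 0.09, and in the longest it was 0.04, 0.01 and -0.05. Cytosolic ribosomal protein genes, which are short, took 2.62%, 2.68% and 3.18% of counts. In 342 genes with a mean of 5 CPM or more the highest sample exceeded the lowest by 1.5-fold or more. Of these, 72, 42 and 228 were highest and 147, 134 and 61 lowest in replicates 1, 2 and 3. Counts of list members highest or lowest in a sample, given below, include any such general shift. Whether they exceed the share over all genes was not tested. Over 11832 detected genes the median log2 deviation from the mean of the 3 was -0.01, -0.01 and 0.02. Where the median deviation of a list is given below, it can be set beside these values.

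The 6 genes that define alveolar macrophages were all abundant in all 3 samples. Siglecf, a sialic acid-binding lectin of the cell surface (ENSMUSG00000039013.16, chromosome 7, 43351341 to 43359531, plus strand; coordinates here and below on GRCm38), stood at 518, 439 and 437 CPM. Itgax, the integrin chain CD11c (ENSMUSG00000030789.9, chromosome 7, 128129547 to 128150657, plus strand), stood at 1579.8, 1565 and 1604 CPM. Chil3, the secreted chitinase-like protein Ym1 (ENSMUSG00000040809.10, chromosome 3, 106147554 to 106167564, minus strand), stood at 24350.2, 21828 and 24019 CPM. These levels were close to each other in the 3 samples, with Siglecf highest in replicate 1 and Chil3 lowest in replicate 2. Ear2, a secreted ribonuclease (ENSMUSG00000072596.4, chromosome 14, 44102654 to 44103534, plus strand), stood at 1874, 1993 and 1895 CPM. Plet1, a surface protein anchored in the membrane by a lipid (ENSMUSG00000032068.14, chromosome 9, 50494525 to 50505482, plus strand), stood at 1315, 1294 and 1288 CPM. Krt79, a keratin whose transcript is characteristic of these macrophages (ENSMUSG00000061397.8, chromosome 15, 101929332 to 101940324, minus strand), stood at 533, 609 and 553 CPM. The highest sample exceeded the lowest by 1.19-fold for Siglecf, 1.02-fold for Itgax, 1.12-fold for Chil3, 1.06-fold for Ear2, 1.02-fold for Plet1 and 1.14-fold for Krt79. Chil3 and Ear2 have near-identical relatives in the genome: 41.5% and 60.5% of the 31-base words of their transcripts also occur in other genes, so part of their counts could belong to relatives.

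A wider list of alveolar macrophage markers was detected in full, 33 of 33 genes. Since the lists were chosen with earlier results of these data known, the values describe the list and do not test what the cells are. Its members summed to 53465, 51002 and 51773 CPM, or 5.35%, 5.10% and 5.18% of all counts, of which Chil3 supplied 44.9%. Their median level per kb was 167 CPM per kb, against 6.41 CPM per kb over all 11859 detected genes. Per kb, Chil3 led the list at 14338 ± 840.0 CPM per kb, and Ear2, the chemokine Ccl6 and the tetraspanin Cd9 stood at 2671 ± 88.5, 1754 ± 143 and 1659 ± 79.9 CPM per kb. Ear1, a close relative of Ear2 that shares 73.6% of its words with other genes, stood at 703, 771 and 610.4 CPM, lowest in replicate 3. Of general macrophage markers 15 of 16 were detected, and they summed to 32275, 32620.3 and 31116 CPM. Lyz2, which encodes lysozyme, supplied 68.8% of that sum. It led the list per kb, and Tyrobp, a signalling adaptor of many myeloid receptors, stood at 1042 ± 20.6 CPM per kb.

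Markers of other cells were low, and what was high in their lists usually came from 1 gene. The serous cavity macrophage list summed to 1874, 1333 and 1727 CPM, but Fn1, fibronectin, was 99.3% of it at 1862, 1323 and 1715 CPM, while Gata6, the factor that defines those macrophages, had 0, 0.0332 and 0 CPM and Selp none at all. The eosinophil list summed to 518, 439.7 and 439 CPM, of which 99.9% was Siglecf itself, and Epx, the eosinophil peroxidase, had at most 0.0166 CPM. Other members, named after their values were seen, were low but highest in replicate 3: Alox15, a lipoxygenase, stood at 0.0579, 0.216 and 1.197 CPM, the eotaxin receptor Ccr3 at 0, 0.0166 and 0.299 CPM and Prg2, the granule major basic protein, at 0, 0 and 0.216 CPM. The B cell list rested on the lectin Cd22, 98.5% of its sum at 166, 173 and 155 CPM, with Pax5 at 0.0386, 0.0830 and 0 CPM. In the endothelial list Vwf, von Willebrand factor, made up 96.4% of the sum at 138, 134 and 144 CPM, whereas Cldn5 was listed at 0 in all 3 samples and Cdh5 reached at most 0.0166 CPM. Which cells gave these transcripts was not tested.

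Type 2 alveolar cells, which make surfactant, had a list sum of 234, 227 and 231 CPM. Abca3, a lipid transporter, supplied 64.8% of it at 155, 149.97 and 144 CPM. Napsa led the list per kb under each length and stood at 64.5, 57.5 and 64.5 CPM. Sftpc, the surfactant protein that defines those cells, stood at 3.82, 5.51 and 7.41 CPM. Airway epithelial markers summed to 96.2, 141 and 97.0 CPM and were highest in replicate 2 for all 6 detected members, among them Scgb1a1, the club cell secretoglobin, at 26.1, 28.2 and 20.03 CPM and Bpifa1, a secreted airway protein, at 47.2, 79.6 and 51.8 CPM. Red cell markers were also highest in replicate 2, with a list sum of 32.9, 82.1 and 23.9 CPM. Monocyte markers summed to 124, 97.1 and 110.3 CPM, led per kb by Treml4 at 33.1, 25.8 and 26.9 CPM, and interstitial macrophage markers to 37.8, 28.2 and 36.7 CPM, with C1qa at 4.40, 3.85 and 3.69 CPM and Lyve1 at no more than 0.0332 CPM. Neutrophil markers summed to 19.4, 26.6 and 19.6 CPM, with 3 of 11 detected. Ltf supplied 51.2% of that sum, while Ly6g, Elane and Mpo were listed at 0 throughout. T cell markers summed to 5.74, 4.43 and 13.4 CPM, highest in replicate 3, and dendritic cell markers to 55.8, 53.1 and 68.9 CPM, also highest there. Natural killer cell markers (1.53, 1.10 and 2.31 CPM), mast cell and basophil markers (0.0965, 0.149 and 0.199 CPM), platelet markers (1.68, 1.28 and 2.29 CPM) and fibroblast markers (2.61, 3.04 and 2.60 CPM) were low as well. In sums, the alveolar macrophage list exceeded every list of another cell type in every sample, as the plot of marker sums shows. That list is also longer, with 33 members against 6 to 13 for other cells, and Chil3 supplied 44.9% of its sum.

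**Figure D1:**
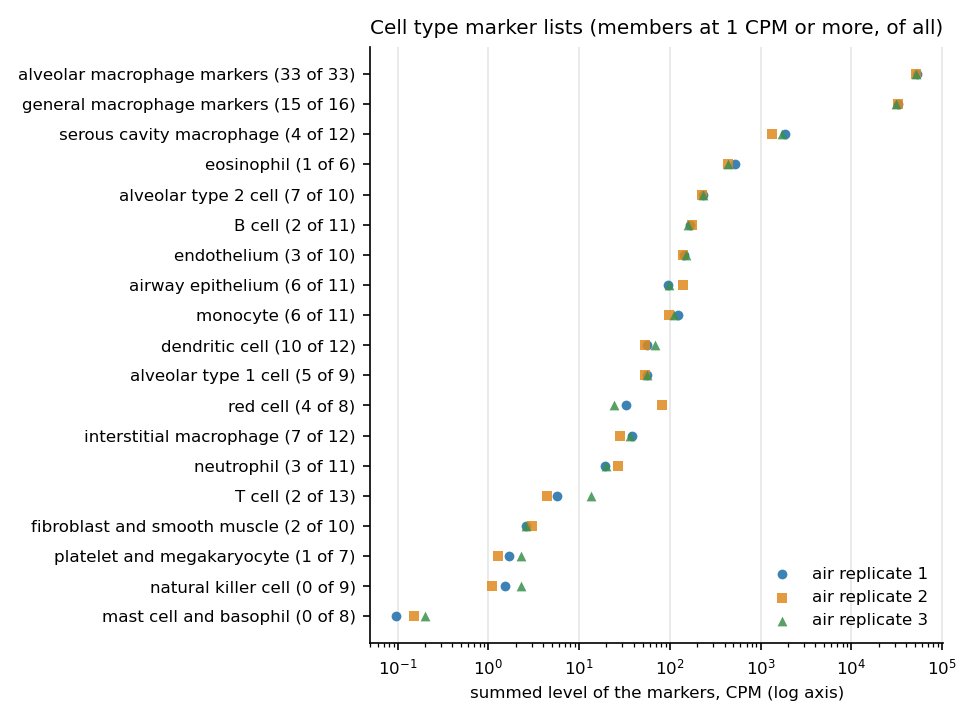
Summed level of each cell type's marker genes in CPM on a log axis, 1 point per air sample; the label gives how many of the markers had a mean of 1 CPM or more. Alveolar and general macrophage markers lie above all other lists in every sample, and the sums of the serous cavity, eosinophil, B cell and endothelial lists rest on Fn1, Siglecf, Cd22 and Vwf. Lists differ in length and were chosen with earlier results of these data known.

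The most abundant transcripts were few in kind: secreted defence proteins, lysosomal proteins, the cytoskeleton, ferritin, and the mitochondrial genome. Chil3 and Lyz2 were the only genes whose mean passed 10000 CPM, with Lyz2 (ENSMUSG00000069516.8, chromosome 10, 117277331 to 117282321, minus strand) at 22147, 22501 and 21365 CPM. The next 2 in the ranking by counts were mt-Co1, a subunit of cytochrome oxidase encoded in the mitochondrion, at 8133, 8069 and 7750.2 CPM, and Ctsd, the lysosomal protease cathepsin D (ENSMUSG00000007891.16, chromosome 7, 142375911 to 142388038, minus strand), at 7018, 6817 and 6653 CPM. These ranks are not corrected for length. Of Lyz2, mt-Co1 and Ctsd, 32.8%, 63.9% and 33.2% of 31-base words recur in other genes, so part of their counts could belong elsewhere. Per kb the order of Chil3 and Lyz2 was not settled, since it turned with the length used (16720.5 ± 442 CPM per kb for Lyz2 and 14338 ± 840.0 CPM per kb for Chil3 by union of exons).

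Other lysosomal and surface proteins filled the list. Psap, the precursor of the saposins that help digest sphingolipids, stood at 4982, 5375 and 5699 CPM and was lowest in replicate 1. Mpeg1, the pore-forming perforin-2, stood at 4582, 4355 and 3867 CPM. Ctss, cathepsin S, stood at 3306, 2992 and 3619.9 CPM, and Laptm5, a lysosomal membrane protein of blood cells, at 3205, 3294 and 3175 CPM. Laptm5 varied least of these, by 1.04-fold. The scavenger and endocytic receptor Lrp1 (2452, 2418 and 2344 CPM), the mannose receptor Mrc1 (2568, 2343 and 2249 CPM), the tetraspanin Cd9 (3496, 3475 and 3203 CPM) and the cholesterol exporter Abcg1 (2520.4, 2849 and 2341 CPM) represented the cell surface. Lpl, the lipoprotein lipase that frees fatty acids from triglyceride, stood at 3624, 3614 and 2952 CPM, lowest in replicate 3, and Ccl6, a chemokine of the CC class, at 3139, 2897 and 3411 CPM, lowest in replicate 2.

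Structural and housekeeping transcripts made up the rest of the 30 highest. Actin was represented by Actb (5723, 6423 and 6324 CPM) and Actg1 (3508, 3625 and 3888 CPM) and its partners by Tmsb4x, which sequesters monomers (5195, 5108 and 5410.1 CPM), and the bundling or linking proteins Flna (3493, 3708 and 3153 CPM), Lcp1 (2674, 2858 and 2402 CPM) and Iqgap1 (2642, 2692 and 2209.8 CPM). The intermediate filament gene Vim stood at 3295, 3654 and 3239 CPM. The iron store was represented by the ferritin chains Ftl1 (4092, 4888 and 5127 CPM) and Fth1 (4232, 4218 and 4310.0 CPM), protein synthesis by the elongation factor Eef1a1 (6104, 5974 and 6263 CPM) and protein folding by Hspa8 (2196, 2755 and 2804 CPM). Hspa8 and Ftl1 were lowest in replicate 1, whereas Flna, Lcp1 and Iqgap1 were lowest in replicate 3. Of Actb, Actg1, Eef1a1, Hspa8 and Ftl1, 23.5%, 40.2%, 49.8%, 43.5% and 57.7% of 31-base words recur in other genes, mostly named as related copies, so these levels are uncertain. The mitochondrial genome supplied 6 of the 30: besides mt-Co1 they were mt-Co2 (3058, 3004 and 3026 CPM), mt-Co3 (2921, 2998 and 3013 CPM), mt-Atp6 (2901, 2905 and 2892 CPM), mt-Nd4 (2509, 2550.2 and 2286 CPM) and mt-Cytb (2386, 2404 and 2201 CPM), all subunits of the respiratory chain or its ATP synthase. Of mt-Co2, mt-Co3 and mt-Atp6, 100%, 99.9% and 99.5% of 31-base words recur in other genes. The share was 63.9% for mt-Co1, 62.8% for mt-Nd4 and 6.55% for mt-Cytb. All but the level of mt-Cytb are thus uncertain as well.

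**Figure D2:**
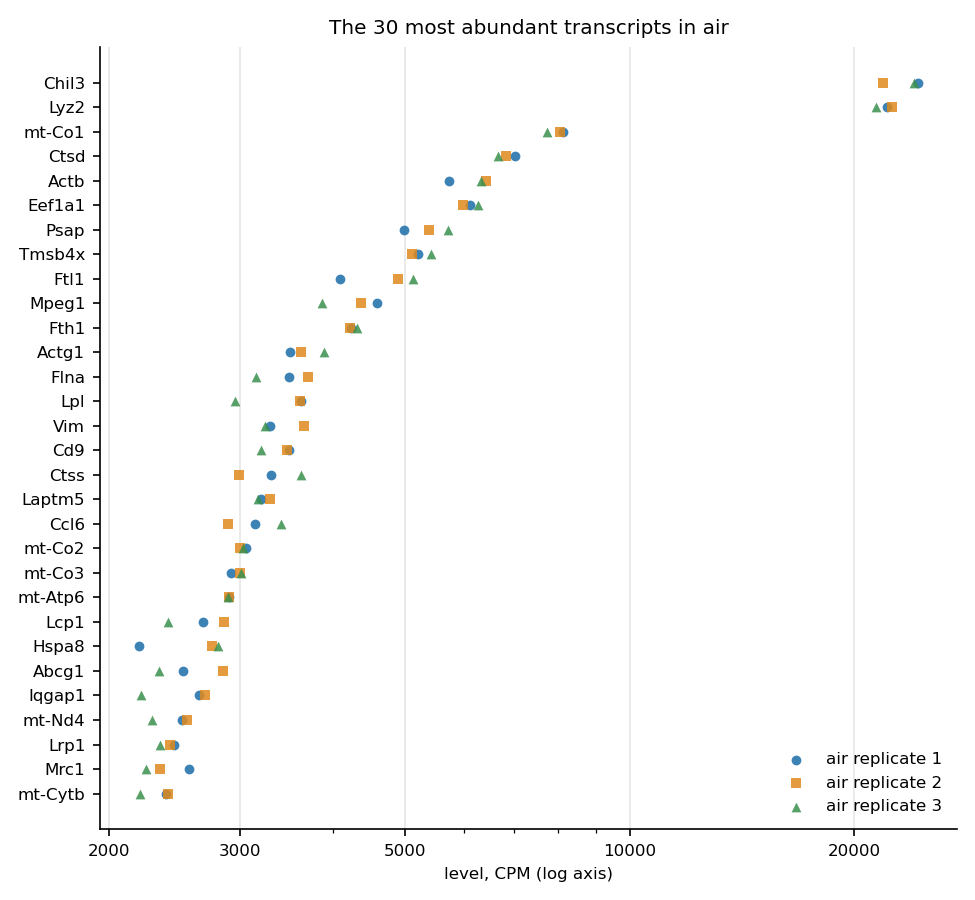
Level in CPM on a log axis of the 30 genes with the highest mean over the 3 air samples, 1 symbol per sample. Chil3 and Lyz2 lie above 10000 CPM in each sample and every other gene below it, and most genes differ little between samples.

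The counts were spread over many genes. The highest gene held 2.44%, 2.25% and 2.40% of the counts, the 10 highest 9.25%, 9.13% and 9.29%, and the 100 highest 24.7%, 24.8% and 24.3% (24.6 ± 0.230%). Between 686 and 704 genes were needed to reach 50% of the counts. Of 54281 gene identifiers 11859 were detected, 10885 of them protein coding, 2150 had a mean of 100 CPM or more and 87 of 1000 CPM or more, and 27469 had no count in any of the 3. Protein-coding genes took 97.9%, 98.1% and 98.0% of counts and the mitochondrial genome 2.86%, 2.84% and 2.71% (2.80 ± 0.0836%). Long intergenic RNAs held 0.711%, 0.548% and 0.623%. Among non-coding RNAs the nuclear transcripts Neat1 and Malat1 stood at 1145, 1034 and 1006 and 636, 525 and 405 CPM, Malat1 being lowest in replicate 3, and the growth-arrest transcript Gas5 at 44.4, 41.7 and 48.1 CPM, while the imprinted H19 was listed at 0.

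Lysosomal genes were abundant and even between samples. Of the list of lysosomal membrane proteins and acid hydrolases 31 of 32 members were detected, with a sum of 13739.7, 13881 and 13593 CPM and a median of 60.8 CPM per kb. The median coefficient of variation (CV, SD over mean) of its members was 4.18%, against 5.98% over all 9832 genes with a mean of 5 CPM or more. Lamp1, a main glycoprotein of the lysosomal membrane, stood at 1141, 1143 and 1169 CPM, and its companion Cd164, a sialomucin, at 1797, 1756 and 1654 CPM. The macrophage glycoprotein Cd68 stood at 749.6, 778 and 751 CPM and Laptm4a at 404, 390.2 and 420.4 CPM. Ifi30, which reduces disulfide bonds in the lysosome, was less even, at 468, 483 and 598 CPM and highest in replicate 3. Per kb Laptm5 led the list under each length, at 851 ± 16.3 CPM per kb by union of exons.

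Lysosomal genes are known targets of TFEB-type factors, which bind a palindromic E-box, so the 250 bases before the annotated start were searched for letters. A total of 8 motifs was looked for on both strands in the RefSeq promoter table for GRCm38.p6: the E-box CACGTG with its extension CACGTGAC, which contains it, the CCAAT box, an interferon-type element of GAAA and GAAA with any 2 bases between, the ETS-type core GAGGAA, a C/EBP-type word TTNNGCAA, the TATA-type word TATAAA and an AP-1-type word TGANTCA. The E-box CACGTG occurred in 9 of 30 matched genes of the lysosomal list, or 30.0%, in 6.86% of the 27025 genes of the table and in 10.2% of detected genes. It occurred in 14.7% of the 100 most abundant genes. Some lists of other cells had it as often, in 3 of 8 type 1 alveolar cell markers (37.5%) and 3 of 10 dendritic cell markers (30%). All remaining lists had lower shares than the lysosomal list. CACGTGAC occurred in 8 of 30 lysosomal genes, or 26.7%, against 2.11% of the table, 4.02% of detected genes and 8.82% of the 100 most abundant. Lamp1 had the letters CACGTG at 4 places, 61, 45, 28 and 15 bases before its start. Its sequence is shown because it carries several copies; capitals mark CACGTG, and it runs 5′ to 3′ on the plus strand of chr8:13158911-13159160.
Lamp1: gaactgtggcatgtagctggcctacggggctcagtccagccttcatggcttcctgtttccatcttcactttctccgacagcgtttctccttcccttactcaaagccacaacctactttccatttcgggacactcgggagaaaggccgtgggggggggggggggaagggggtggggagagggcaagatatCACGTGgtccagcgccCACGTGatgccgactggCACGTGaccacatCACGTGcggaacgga
A match describes letters in a window, and no binding was measured.

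Genes of acidification were even as well, and those of proteolysis less so. The V-ATPase, the proton pump of the lysosome, had 17 of 18 subunits detected, with a sum of 4823, 4888 and 5023 CPM and a median CV of 4.20%. Its leading subunit per kb was Atp6v0d2, at 1459.7, 1430.3 and 1364 CPM, which alone was 28.9% of the sum, and Atp6v1b2 and Atp6v0c stood at 725, 754 and 729 and 391, 414 and 519 CPM. Atp6v1b1, a form typical of kidney and inner ear, stayed at or below 0.0664 CPM. Among proteases and their inhibitors 30 of 45 were detected, with a median of 57.5 CPM per kb and a median CV of 9.34%. Cathepsins held the lead: Ctsd was highest per kb at 2905 ± 77.8 CPM per kb and Ctss followed at 2434 ± 231. Ctsb stood at 1526, 1515 and 1505 CPM, Ctsz at 671, 678 and 789.7 CPM and Ctsk, a collagen-degrading cathepsin, at 407, 482 and 478 CPM. The cathepsin inhibitor Cstb stood at 135, 136 and 159.8 CPM. The neutrophil elastase Elane and the plasma inhibitor A2m were listed at 0.

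Genes of lipid handling were likewise well represented. Of those for lipid uptake, droplets and fatty acids 45 of 48 were detected, with a sum of 11692, 11876 and 10681 CPM and a median of 33.0 CPM per kb. Plin2, which coats lipid droplets, stood at 1202, 1252 and 1102 CPM, and Cidec, which enlarges them, at 343, 376 and 325 CPM, while its relative Cidea stayed at or below 0.0579 CPM. Fabp1, a fatty acid carrier best known from liver, stood at 155, 211 and 158 CPM, highest in replicate 2, and the heart form Fabp3 at or below 0.0996 CPM. Cd36, a receptor for fatty acids and oxidised lipoprotein, stood at 479, 539.7 and 401 CPM, lowest in replicate 3. Lipa, the lysosomal acid lipase, stood at 949, 939 and 851 CPM.

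All 28 of 28 genes of surfactant phospholipid breakdown and lysosomal lipid digestion were detected, with a median of 68.9 CPM per kb. Psap led per kb at 1950.4 ± 131 CPM per kb. Pld3, a lysosomal exonuclease of the phospholipase D family, stood at 966, 1067 and 1016 CPM, Ctsa, the protective protein of lysosomal glycosidases, at 934, 955 and 929 CPM, and Pla2g15, the lysosomal phospholipase, at 580.5, 568 and 598 CPM. Hexa, a hexosaminidase chain, and Asah1, the acid ceramidase, stood at 516, 531 and 536 and 528, 486 and 492 CPM. For none of these 6 did the highest sample exceed the lowest by more than 1.14-fold, the value for Psap.

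Cholesterol export was high and cholesterol synthesis moderate. The efflux list had 21 of 22 members detected, and Abcg1 supplied 42.5% of its sum of 6042, 6392 and 5729.9 CPM. Nceh1, which hydrolyses stored cholesterol ester, stood at 945, 943 and 803 CPM, Soat1, which makes the ester, at 370.0, 348 and 353 CPM, and the lysosomal cholesterol carriers Npc1 and Npc2 at 406, 419 and 357 and 437, 413 and 471 CPM. The nuclear receptors Nr1h3 and Nr1h2, the oxysterol sensors LXRα and LXRβ, stood at 55.1, 56.7 and 51.5 and 47.8, 56.0 and 63.1 CPM. All 20 of 20 genes of cholesterol synthesis were detected and summed to 1110.2, 947 and 1274 CPM. All 20 were highest in replicate 3 and 17 were lowest in replicate 2. Their median log2 deviation was 0.02, -0.22 and 0.20, against -0.01, -0.01 and 0.02 over 11832 detected genes. Hmgcs1, an early enzyme of the pathway, stood at 179.7, 155 and 203 CPM, and Idi1 and Mvd, which act later in it, at 83.1, 65.2 and 95.4 and 60.7, 52.8 and 86.1 CPM. The letters CCAAT occurred before 14 of 15 matched genes of this list, or 93.3%, against 37.5% of the table and 41.2% of detected genes.

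Transcription factor lists had medians from 6.49 to 11.2 CPM per kb, against 6.41 CPM per kb over all detected genes. Receptor lists spanned a wider range, from 4.46 to 70.5 CPM per kb, and secreted products the widest, from 2.01 to 119.8 CPM per kb. Spi1, which encodes PU.1, the master factor of myeloid cells, stood at 287, 308 and 329 CPM and led the ETS family per kb at 114 ± 7.91 CPM per kb. The related Elf4 stood at 26.6 ± 0.349 CPM per kb. Erg, an endothelial family member, was listed at 0. Cebpa and Cebpb, the C/EBP factors of myeloid and alveolar macrophage development, stood at 307, 292 and 276 and 108, 106 and 158 CPM, and Cebpb was highest in replicate 3. In the same list Xbp1, a factor of the unfolded protein response, led per kb at 131 ± 3.98 CPM per kb, and Atf4, the amino acid response factor, stood at 118, 122 and 131 CPM.

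The nuclear receptors were led by a pair that binds DNA together. Pparg, the lipid-sensing receptor on which alveolar macrophages depend (ENSMUSG00000000440.12, chromosome 6, 115360951 to 115490399, plus strand), stood at 207, 223 and 217 CPM and its partner Rxra at 365, 426 and 415 CPM. They lay close together per kb, at 73.0 ± 2.62 and 73.6 ± 5.93 CPM per kb, and their order turned with the length used. Ppara, the sister receptor of liver and heart, and Rxrg were listed at 0 in all 3 samples, and 5 of the 37 list members had no count at all. The glucocorticoid receptor Nr3c1 stood at 198, 192 and 175 CPM and the retinoic acid receptor Rara at 129, 149 and 119.6 CPM. Among basic helix-loop-helix factors Bhlhe40 led per kb under each length, and with Bhlhe41 it is known to support self-renewal of alveolar macrophages; they stood at 375, 273 and 300.2 and 208, 191 and 162 CPM, both highest in replicate 1. The MiT family member Tfec stood at 149.8, 179 and 164 CPM and the upstream factors Usf1 and Usf2 at 96.4, 101 and 106 and 132, 138 and 153 CPM.

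Transcripts of stress and activation factors were present in the air group. Nfe2l2, the antioxidant response factor NRF2, stood at 247, 254.5 and 265 CPM and led the AP-1 and MAF list per kb at 67.4 ± 2.40 CPM per kb. Its relative Nfe2l1 stood at 246, 259 and 239 CPM and Bach1, which opposes it, at 193, 187 and 187 CPM. Of the zinc fingers Klf6 led per kb at 367, 316 and 316 CPM, Klf4 stood at 185, 144 and 140.1 CPM and Egr2, known from alveolar macrophages, at 114, 80.04 and 76.6 CPM. Klf6, Klf4, Egr2 and the immediate early gene Fos (162, 105 and 105 CPM) were highest in replicate 1. Klf6, Klf4 and Fos also belong to the list of genes induced early or by cell preparation. Induction while the cells were prepared was not tested. The NF-κB subunits Rela and Nfkb1 stood at 86.4, 96.6 and 98.7 and 175, 176 and 179 CPM and the interferon regulatory factors Irf8 and Irf5 at 91.6, 92.4 and 99.3 and 67.1, 55.8 and 84.2 CPM. Of the STAT and SMAD list Stat6, which relays interleukin 4 signals, led per kb at 303, 299 and 284 CPM, and the list was even, with a median CV of 3.39%. Stat5b, which relays GM-CSF signals, stood at 99.4, 103 and 102 CPM. Runx1 and its partner Cbfb stood at 259, 229 and 253 and 226, 234 and 229 CPM. Among factors of other tissue macrophages, Sall1 of microglia had no count and Gata6 of the peritoneum at most 2 counts in a sample. Gata4, Sox9 and Twist2 were also listed at 0.

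**Figure D3:**
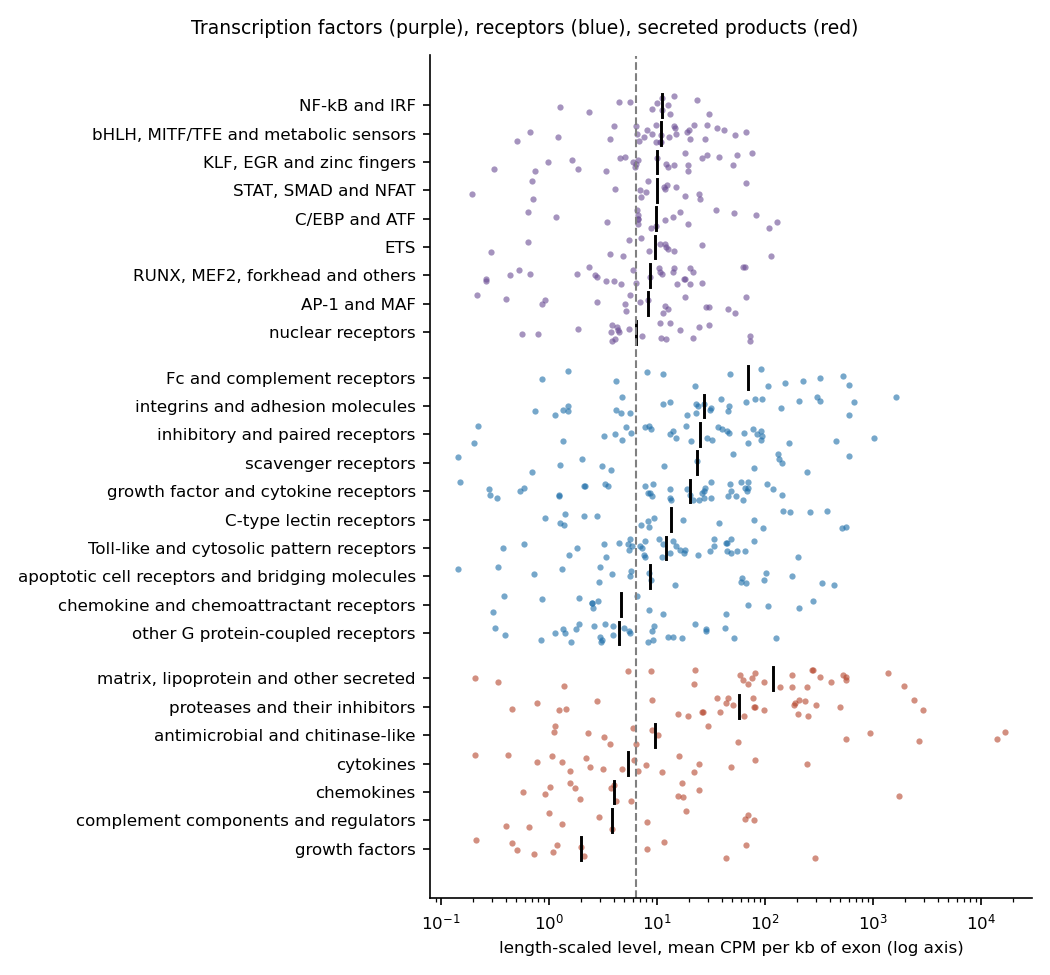
Mean level of each detected gene over the 3 air samples in CPM per kb of exon on a log axis, 1 point per gene, with the list median as a black bar and the median of all detected genes, 6.41 CPM per kb, as a dashed line. Lists of transcription factors have medians near the dashed line, while Fc and complement receptors, adhesion molecules, secreted matrix and lipoproteins, and proteases lie to its right.

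Among growth factor and cytokine receptors those of GM-CSF, TNF and TGF-β were prominent. Csf2rb, the signalling chain of the GM-CSF receptor, led that list per kb, at 1046, 1075 and 1061 CPM, and Csf2rb2, its mouse paralog, stood at 335, 336 and 325 CPM; 19.6% of the 31-base words of Csf2rb recur elsewhere. The ligand-binding chain Csf2ra stood at 181, 209 and 217 CPM. The TGF-β receptors Tgfbr1 and Tgfbr2 stood at 713, 733 and 638 and 575, 578 and 536 CPM and the TNF receptor Tnfrsf1b at 467, 444 and 447 CPM. None of these varied beyond 1.201-fold, the range of Csf2ra, which was lowest in replicate 1. In all 43 of 51 list members were detected. Pdgfrb, a receptor of pericytes and fibroblasts, stayed at or below 0.0665 CPM.

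The Fc and complement receptors had the highest median of the receptor lists, 70.5 CPM per kb over the 14 of 19 members detected. Itgb2, the β2 integrin chain, stood at 1868, 1861 and 1780.2 CPM, Fcer1g, the shared Fc receptor chain, at 454, 436 and 494 CPM, Fcgr3, a low-affinity IgG receptor, at 384, 385 and 407 CPM and Fcgrt, the neonatal Fc receptor, at 300.3, 309 and 357 CPM. Cr2, a B cell complement receptor, reached at most 0.0579 CPM and Fcer1a of mast cells was at 0. Of C-type lectins and galectins, Lgals3 led per kb at 926, 1113 and 1136 CPM. Clec7a, the β-glucan receptor dectin-1, stood at 1404, 1400.4 and 1299 CPM. Clec4n, dectin-2, stood at 388, 414 and 329 CPM. The scavenger receptors Marco and Olr1 stood at 415, 525 and 476 and 559, 554 and 451 CPM, Marco lowest in replicate 1, and Scarb2 at 521, 504 and 468 CPM. Msr1, the class A receptor, was uneven at 18.1, 5.76 and 15.2 CPM, and 6 scavenger receptors, among them Scara5, Stab2 and Megf10, stayed below 0.1 CPM.

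Sensors of microbes were broadly present, 38 of 41 of that list being detected. Tlr2, the receptor of bacterial lipopeptides, led per kb at 659, 644 and 525 CPM. Tlr8 and Tlr7, sensors of RNA in endosomes, stood at 363, 202 and 286 and 234, 199 and 166 CPM, both X-linked genes, and their chaperone Unc93b1 at 186, 184 and 224 CPM. Tlr8 was lowest in replicate 2, the sample with little Xist, and Tlr7 in replicate 3. The adaptor Myd88 and the inflammasome protease Casp1 stood at 131, 125 and 121 and 84.6, 84.97 and 79.8 CPM. Of the list 20 members were highest in replicate 1, 4 in replicate 2 and 14 in replicate 3. The median log2 deviation of detected members was small, at 0.07, -0.03 and -0.03.

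Receptors for dying cells were led by 1 gene. Axl, a receptor of the TAM family that recognises phosphatidylserine through a bridging protein, stood at 2157, 2259 and 2205 CPM and led its list per kb under each length; its sister Mertk stood at 461, 469 and 398 CPM and the bridging protein Pros1 at 439, 400.5 and 383 CPM. Calr, an eat-me protein of the endoplasmic reticulum, and Anxa1, an annexin released by phagocytes, stood at 1062, 937 and 931 and 519.6, 551 and 508 CPM. Timd2, Stab2 and the brain receptor Adgrb1 stayed below 0.1 CPM. Among inhibitory and paired receptors Sirpa, the receptor of the don't-eat-me signal CD47, stood at 2261, 2274 and 2156 CPM, Siglec1, a sialoadhesin, at 677, 686 and 633 CPM and Pilra at 283, 293 and 282 CPM, each with little spread. Lilra5 stood at 212, 208 and 186 CPM. The letters GAGGAA, a core to which ETS factors such as PU.1 bind, occurred before 19 of 30 matched genes of this list (63.3%), 14 of 23 genes of the dying-cell list (60.9%) and 8 of 11 general macrophage markers (72.7%), against 25.9% of the promoter table and 26.1% of detected genes. The share was 36.4% for alveolar macrophage markers (8 of 22), and lists of other cells held the letters about as often as the 3 lists above, in 5 of 7 T cell markers (71.4%) and 6 of 10 neutrophil markers (60%).

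Of chemoattractant receptors those for formyl peptides and C5a were well above the list median. Fpr1 and Fpr2, the formyl peptide receptors, stood at 387, 396 and 326 and 275, 272 and 256.1 CPM and C5ar1, the C5a receptor, at 281, 309 and 248 CPM. Per kb Fpr1 led at 279 ± 28.9 CPM per kb. Cxcr4 and Ccr1 stood at 102, 127 and 155 and 137, 126 and 107 CPM, Cxcr4 lowest in replicate 1. Only 16 of 27 of the list were detected, and the median of those was 4.69 CPM per kb. Ccr2 of monocytes stood at 22.1, 15.1 and 20.7 CPM and Ackr3 had a count in 1 sample. Other G protein-coupled receptors were low as well, with a median of 4.46 CPM per kb; Adgre1, the F4/80 antigen, led per kb at 456, 383 and 390.4 CPM, and the nucleotide receptor P2ry13, the niacin receptor Hcar2, the fatty acid receptor Ffar4 and the cannabinoid receptor Cnr2 stood at 149, 132 and 115, 98.4, 87.3 and 63.0, 41.0, 40.5 and 38.7 and 114, 115 and 112 CPM. Adhesion molecules comprised Cd9, Cd44, the hyaluronan receptor, at 2183, 2127 and 1877 CPM, and Ctnnb1, β-catenin, at 1086, 1089 and 1059 CPM. Cdh2, Itga8 and Itgb6 were below 0.1 CPM.

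Secreted products fell into a few very high genes and a long tail. The antimicrobial and chitinase-like list summed to 50206, 48421 and 49250.3 CPM, of which Chil3 was 47.5%, although only 16 of 30 members were detected. Rnase4 stood at 94.2, 96.1 and 88.8 CPM, and Camp, Bpi and Chit1, products of granulocytes or of other macrophages, had no more than 1 count in a sample. Chemokines summed to 3352, 3073 and 3676 CPM, and 93.5% of that was Ccl6 (ENSMUSG00000018927.3, chromosome 11, 83587882 to 83593087, minus strand). Cx3cl1, fractalkine, stood at 63.7, 58.1 and 62.4 CPM, Ccl9 at 52.9, 34.5 and 68.6 CPM, and Ccl22 and Ccl17, which attract T cells, at 37.0, 37.4 and 49.4 and 9.94, 8.55 and 19.4 CPM. Of 34 chemokines 15 were detected and 12 stayed below 0.1 CPM, with Ccl1, Ccl11, Cxcl11 and Ccl20 at 0. Ccl9 and the chemokine list as a whole were lowest in replicate 2, in 12 of 15 detected members. The median log2 deviation of detected chemokines was 0.06, -0.24 and 0.17.

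Cytokine transcripts were sparse. Il18, stored as an inactive precursor, led per kb at 255.6, 266 and 239 CPM, and Il1rn, the antagonist of interleukin 1, stood at 269, 285 and 255.3 CPM. Tnfsf13, the B cell factor APRIL, stood at 128, 127 and 143 CPM and Il16 at 129, 138 and 113 CPM. Il1b and Tnf were low and uneven, at 10.1, 7.70 and 17.6 and 23.4, 9.84 and 6.12 CPM. Il1b was highest in replicate 3 and Tnf in replicate 1. Of 40 cytokines 13 stayed below 0.1 CPM, and Il17a, Ifnb1, Ifna4 and Tslp were at 0, as was Il10 but for 1 count in replicate 2. Growth factors were led by Grn, progranulin, at 982, 1023 and 1083 CPM, and Tgfb1 and the galanin precursor Gal stood at 199, 216 and 252 and 49.8, 53.2 and 56.1 CPM. Of complement, Cfb and C3 stood at 219, 180.1 and 272 and 347, 266 and 398 CPM, both lowest in replicate 2, and Cfp, properdin, at 110.3, 117 and 142 CPM, all 3 of the alternative pathway, while C7 and Mbl2 were at 0. Among other secreted proteins Trf, transferrin, stood at 1939, 1757 and 1923 CPM, B2m, the light chain of class I molecules, at 1238, 1154 and 1217 CPM, and the annexins Anxa2 and Anxa5 at 1997, 2083 and 1924 and 735, 746 and 722 CPM, while Col1a1 was at most 0.0831 CPM. Of the 31-base words of Trf, 63.8% recur in other genes.

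Of core metabolism the tricarboxylic acid cycle was the more even between samples and glycolysis the less. The tricarboxylic acid cycle had 25 of 26 genes detected with a median CV of 4.06%. Idh1, the cytosolic isocitrate dehydrogenase that yields NADPH, stood at 398, 355 and 424 CPM, Ogdh at 402, 402 and 386 CPM and Sdha, a succinate dehydrogenase subunit, at 307, 305 and 328 CPM. Glycolysis and the pentose phosphate pathway had 28 of 32 genes detected, with a median of 22.2 CPM per kb and a median CV of 9.55%, above the 5.98% of all genes. Gapdh and Aldoa stood at 1696, 1839.6 and 1822 and 975, 1077 and 1082 CPM, Pkm, the muscle-type pyruvate kinase, at 724, 785 and 785 CPM and Taldo1, of the pentose branch, at 574, 655 and 663 CPM; the liver form Pklr was listed at 0. Of the 28 detected, 23 were highest in replicate 3. That sample was also highest in 228 of the 342 genes of 5 CPM or more with a 1.5-fold range. These genes were picked by their range and the glycolysis genes were not, so the 2 counts are not alike. Whether the glycolysis count exceeds the share over all genes was not tested. The median log2 deviation of the detected glycolysis genes was -0.07, -0.05 and 0.13.

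Iron and oxidants were handled by abundant transcripts. Beside ferritin, Ncoa4, which delivers ferritin to the lysosome, stood at 1319, 1317 and 1072 CPM, Hmox1, the inducible heme oxygenase, at 217, 215 and 209 CPM, and Blvra, which reduces its product, at 172, 189.9 and 172 CPM. Of antioxidant enzymes 35 of 39 were detected. Prdx1, a peroxiredoxin, stood at 857, 886 and 856 CPM, Gpx1, a glutathione peroxidase, at 360.2, 405 and 478 CPM, Txn1, thioredoxin, at 351, 356 and 391 CPM, and the glutathione transferase Gstm1 at 248, 239 and 232 CPM. Gpx1 was lowest in replicate 1, and the other 3 differed by no more than 1.11-fold. The NADPH oxidase, which makes superoxide, was represented by Cybb at 2207, 1778 and 1837 CPM, Cyba at 367, 429 and 469 CPM and the cytosolic subunit Ncf1 at 408, 341 and 427 CPM. Nos2, the inducible nitric oxide synthase, had 1 count in each sample (0.0193, 0.0166 and 0.0166 CPM), and Mpo none. Eicosanoid synthesis was led per kb by Alox5ap, the activating protein of leukotriene synthesis, at 509, 505 and 527 CPM. In the same branch Alox5, the lipoxygenase, stood at 448, 471 and 461 CPM and Ltc4s, leukotriene C4 synthase, at 59.6, 79.7 and 104 CPM, whereas Ptgs1, cyclooxygenase 1, stood at 9.82, 5.28 and 15.2 CPM and Ptgds at 0.

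Antigen presentation was present in both classes. All 20 of 20 class I genes were detected, with H2-D1 at 1251, 1349 and 1384 CPM and H2-K1 at 543, 552 and 618 CPM; class I genes resemble each other, and 26.7% of the 31-base words of H2-D1 recur. Of class II genes 14 of 16 were detected, and the sum of 6117, 6441 and 7265 CPM was 50.03% Ctss. Cd74, the invariant chain, stood at 1169.8, 1519 and 1577 CPM, H2-Aa at 321, 421 and 405 CPM and H2-Ab1 at 199, 275 and 293 CPM, all lowest in replicate 1, as were 10 of 14 members. The median log2 deviation of detected class II genes was -0.13, 0.09 and 0.10. Dendritic cell markers, which could add class II transcripts, summed to 55.8, 53.1 and 68.9 CPM, and their part was not tested. Letters CCAAT occurred before 15 of 18 class I genes (83.3%) and 8 of 11 class II genes (72.7%), against 37.5% of the promoter table and 41.2% of detected genes.

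Interferon-stimulated genes were low and highest in replicate 3. Of the list 25 of 33 were detected, with a median of 1.26 CPM per kb, under the median of all detected genes. The median log2 deviation of members from the mean of the 3 samples was -0.19, -0.36 and 0.58, and 20 of 25 were highest in replicate 3. Ifi27 was even at 47.1, 49.3 and 49.0 CPM. Bst2, tetherin, stood at 18.4, 20.02 and 30.6 CPM and Oas1a at 21.4, 22.8 and 29.6 CPM. The wide differences were in low genes: Oas3, a sensor of double-stranded RNA, at 0.927, 0.564 and 7.45 CPM, the deconjugating enzyme Usp18 at 0.483, 0.332 and 2.23 CPM, Ifi27l2a at 3.36, 3.07 and 10.7 CPM and the factor Irf7 at 2.86, 2.56 and 8.89 CPM. In each of these genes replicate 3 lay above the other pair, which were closer together. T cell marker sums were also highest in replicate 3 and their part in this was not tested.

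The interferon-type letters, GAAA and again GAAA after any 2 bases, occurred before 15 of 23 matched genes of this list, or 65.2%, against 3.46% of the promoter table. Oas3 is shown as the member with the widest range among those named above, with capitals marking the letters 75 bases before its start, on the minus strand of chr5:120777660-120777909.
Oas3: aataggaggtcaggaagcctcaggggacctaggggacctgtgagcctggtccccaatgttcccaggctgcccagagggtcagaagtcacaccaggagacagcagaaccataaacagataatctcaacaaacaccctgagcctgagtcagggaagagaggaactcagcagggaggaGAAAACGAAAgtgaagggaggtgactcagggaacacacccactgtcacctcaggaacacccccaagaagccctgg
These letters are a description of the window, not a measured site.

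Inflammatory and alternative activation genes were mixed. Tnfaip2, a protein induced by TNF, supplied 59.3% of the inflammatory list at 848, 938 and 835 CPM, the inhibitor Nfkbia stood at 48.5, 61.3 and 61.1 CPM, Nlrp3, the inflammasome sensor, at 75.9, 74.2 and 50.2 CPM, lowest in replicate 3, and Zfp36, which destabilises cytokine transcripts, at 83.2, 60.7 and 67.3 CPM. Of the alternative activation list, beside Chil3 and Mrc1, the transglutaminase Tgm2 stood at 632, 561 and 701 CPM and the interleukin 4 receptor chain Il4ra at 147, 161 and 166 CPM. Arg1, the arginase that is the usual partner of these markers, stood at 0.232, 0.315 and 26.4 CPM, so 2 samples hardly had it and replicate 3 did. Of genes induced early or by cell preparation 27 of 29 were detected, with a median of 9.88 CPM per kb, and 10, 2 and 15 of them were highest in replicates 1, 2 and 3. Egr1 stood at 5.54, 2.26 and 2.38 CPM, Ier3 at 2.70, 1.88 and 4.803 CPM and the heat shock gene Hspa1b at 1.45, 3.00 and 4.86 CPM.

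Genes of proliferation were detected in full at rest. All 22 of 22 replication genes summed to 1067, 1229 and 1424 CPM, and all 22 of 22 genes of G2 and mitosis to 784, 914 and 1030.0 CPM. Pcna, the sliding clamp, stood at 228, 244 and 278 CPM and led the replication list per kb, and the helicase subunit Mcm3 and the nucleotide-making Rrm2 stood at 85.8, 93.7 and 113 and 51.1, 57.4 and 77.5 CPM. In mitosis Bub1b, a spindle checkpoint protein, stood at 114, 118 and 125 CPM, Tpx2, a spindle protein, at 37.2, 44.5 and 47.2 CPM, and Ccna2 and Ccnb2, the cyclins of S phase and of mitosis, at 31.8, 40.9 and 50.5 and 20.5, 23.5 and 29.1 CPM. Replicate 1 was lowest in 21 of 22 replication genes and in all 22 mitotic ones, and replicate 3 was highest in 21 of 22 in each list. Their median log2 deviations were -0.23, 0.02 and 0.22 and -0.23, 0.02 and 0.24. In replicates 1 and 3 these were larger in size than the -0.06 and 0.09 of the shortest length class, but not in replicate 2. The part of transcript length in them was not tested. Of entry and arrest genes, Ccnd2, cyclin D2, led per kb at 446, 424 and 383 CPM and Cdk6 stood at 295, 279 and 226 CPM, both lowest in replicate 3, while the inhibitors Cdkn1a and Cdkn1b stood at 79.3, 88.1 and 93.7 and 76.8, 82.7 and 96.4 CPM.

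The letters CCAAT occurred before 16 of 18 matched mitotic genes (88.9%) and 13 of 19 replication genes (68.4%), against 37.5% of the promoter table and 41.2% of detected genes. Ccnb2 is shown as a case with 3 copies, in capitals at 87, 54 and 21 bases before its start on the minus strand of chr9:70421555-70421804.
Ccnb2: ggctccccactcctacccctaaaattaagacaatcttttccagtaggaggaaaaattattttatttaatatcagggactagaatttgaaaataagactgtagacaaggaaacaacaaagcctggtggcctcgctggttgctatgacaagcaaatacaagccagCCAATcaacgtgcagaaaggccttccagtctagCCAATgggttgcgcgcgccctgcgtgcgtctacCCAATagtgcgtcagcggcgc

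**Figure D4:**
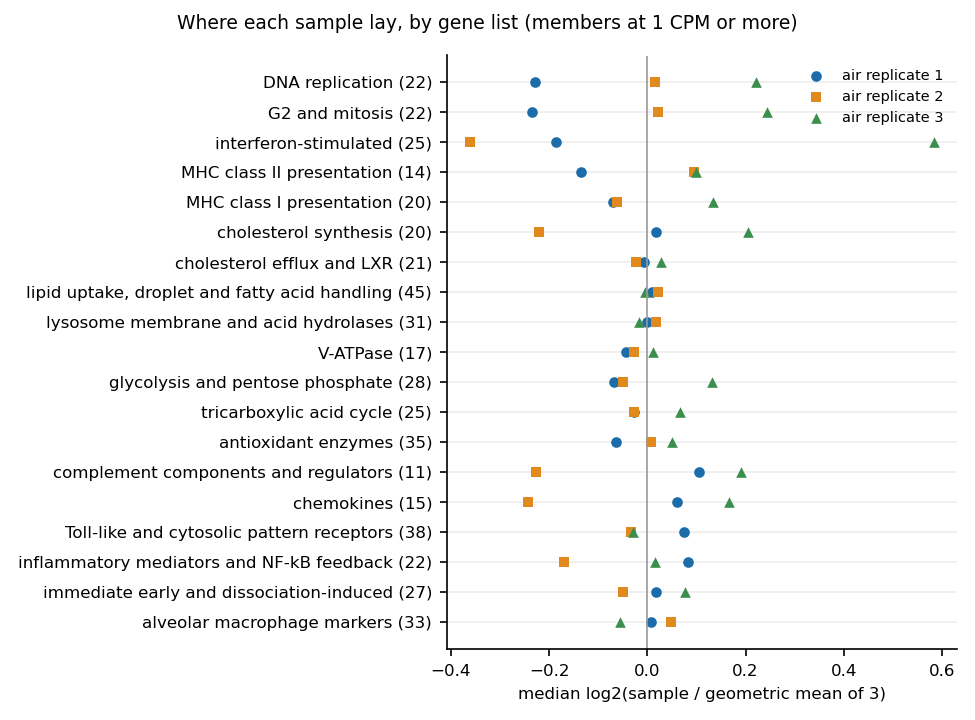
Median over the detected members of each list drawn of the log2 ratio of a sample to the geometric mean of the 3 air samples, 1 symbol per sample, with the number of members in brackets. Of the lists drawn, which leave out markers of other cells, replication, mitosis and interferon lists spread most, with medians of -0.23, 0.02 and 0.22, -0.23, 0.02 and 0.24 and -0.19, -0.36 and 0.58 in replicates 1, 2 and 3, while lysosome, lipid and V-ATPase lists stay within 0.05 of 0.

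The 3 samples were alike across the transcriptome. Over the 9832 genes with a mean of 5 CPM or more, Pearson's correlation of log2(CPM + 1) across genes was 0.994 for replicates 1 and 2 and 0.990 for each pair with replicate 3, as a description since genes are not replicates. The median CV was 5.98%. It was 8.26% for genes of 5 to 20 CPM, 5.35% at 20 to 100 CPM, 5.32% at 100 to 1000 CPM and 5.71% above. Counting error, taken as 1 over the square root of the mean count, had medians of 3.91%, 1.99%, 0.993% and 0.320%. A median CV from 3 samples with counting error alone would be somewhat lower than these. The spread above 20 CPM was thus larger than counting error. The common biological coefficient of variation estimated by edgeR was 10.3%. No pair of samples agreed within sampling noise, with chi-square per degree of freedom of 20.8 to 32.5, so none was a copy of another.

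Few genes differed widely. A range of 1.5-fold or more was seen in 342 genes (3.48%), 2-fold in 71 (0.722%) and 3-fold in 25 (0.254%). Of the 342, 228 were highest in replicate 3, 72 in replicate 1 and 42 in replicate 2. Leaving replicate 3 out left 5 genes with a 3-fold range, leaving replicate 2 out left 16 and leaving replicate 1 out left 21. Of the 25, 8 bore clone or pseudogene names, and 7 of those share much of their sequence with other genes, so their counts can shift between copies; the exception AA467197, named here after its values were seen, stood at 1.91, 1.51 and 20.9 CPM.

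A group of low genes was high in replicate 3 only. Ccl24, an eosinophil-attracting chemokine, had 0, 0 and 941 counts (0, 0 and 15.6 CPM), at least 270.0-fold higher in replicate 3 than the limit of 3 counts in replicate 1. Arg1 stood at 0.232, 0.315 and 26.4 CPM, Rnase2a, a ribonuclease of the eosinophil family, at 0.328, 0.199 and 20.9 CPM, and Mmp12, macrophage elastase, at 8.21, 9.21 and 43.5 CPM. All 4 were low in both other samples. Gatm, the first enzyme of creatine synthesis, stood at 5.15, 4.38 and 14.9 CPM, Adam8, a sheddase, at 3.24, 3.49 and 10.8 CPM, Timp1, which inhibits metalloproteases, at 0.463, 0.349 and 3.04 CPM, and Csf1, the macrophage growth factor, at 1.255, 0.863 and 4.49 CPM. Inhba, an activin chain, stood at 0.734, 0.780 and 2.58 CPM. Marker sums in replicate 3 were within the range of the other samples for monocytes and neutrophils. T cell and dendritic cell sums were highest in replicate 3, as were the eosinophil markers Alox15, Ccr3 and Prg2 given above, and their part in these differences was not tested.

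Other genes were low or high in replicate 2. Msr1 (18.1, 5.76 and 15.2 CPM), the orphan receptor Gpr35 (14.1, 5.58 and 16.6 CPM), the calcium-binding S100a4 (16.1, 7.22 and 23.9 CPM) and S100a6 (31.2, 15.6 and 46.8 CPM), and Ptgs1 were lowest in replicate 2. The highest sample exceeded it by 3.14-fold for Msr1, 2.98-fold for Gpr35, 3.31-fold for S100a4, 3.00-fold for S100a6 and 2.89-fold for Ptgs1. The globin genes were highest there, with Hbb-bs at 12.0, 29.8 and 8.68 CPM and Hba-a1 at 8.60, 19.97 and 6.504 CPM. Red cells were lysed before extraction, and the 4 globin genes together came to 32.2, 80.3 and 23.4 CPM. Tnf was highest in replicate 1, 3.83-fold above replicate 3, and so was the prostaglandin receptor Ptger4 at 50.6, 28.0 and 19.98 CPM. Tmem254c and Xlr3b stood at 12.6, 2.63 and 7.92 and 10.1, 3.41 and 4.41 CPM, and every 31-base word of Tmem254c and 68.8% of those of Xlr3b recur in other genes.

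**Figure D5:**
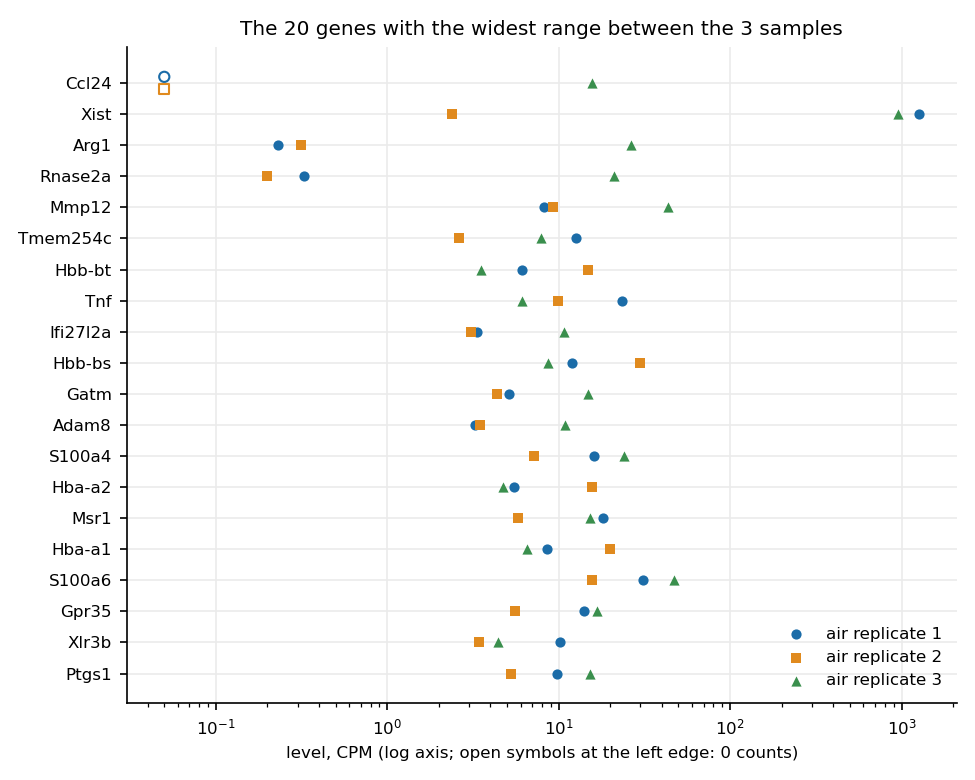
Level in CPM on a log axis of the 20 genes with a mean of 5 CPM or more and the widest range between the air samples, clone and pseudogene names left out; open symbols at the left edge are 0 counts. Ccl24, Arg1, Rnase2a and Mmp12 stand apart in replicate 3, Xist is low in replicate 2 alone, and the 4 globin genes are highest in replicate 2.

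Xist (ENSMUSG00000086503.4, chromosome X, 103460366 to 103483254, minus strand) stood at 1269, 2.37 and 957 CPM, or 65743, 143 and 57558.5 estimated counts. Its antisense partner Tsix reached at most 0.0413 CPM. Of the Y-linked genes Ddx3y, Eif2s3y and Uty were at 0 in each sample and Kdm5d stood at 0.116, 0.133 and 0.134 CPM. All 1160 genes annotated on the Y summed to 12.3, 20.9 and 19.8 CPM, most of it from Gm47283, at 8.65, 18.6 and 17.1 CPM, of whose 31-base words 46.8% recur in other genes. Gm21244, the only other with a mean above 1 CPM, stood at 1.86, 1.47 and 1.17 CPM, and both were named after their values were seen. Replicate 2 thus had little Xist and, like the others, no counts for Ddx3y, Eif2s3y and Uty. The 303 X-linked genes with a mean of 5 CPM or more, Xist apart, summed to 35447, 34168 and 34254 CPM, and their median log2 deviation was 0.02, -0.01 and -0.02. Genes known to escape X inactivation, chosen after their values were seen, were lowest in replicate 2: Kdm6a stood at 72.6, 35.7 and 58.5 CPM, Eif2s3x at 298, 173 and 290.3 CPM, Kdm5c at 167, 115 and 152 CPM, and Ddx3x at 687, 522 and 528 CPM. The gap to replicate 3 was small for Ddx3x. What this sample is was not tested.

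Transcripts of the circadian clock, chosen after their values were seen, also differed in replicate 1. Tef stood at 30.4, 69.0 and 60.3 CPM, Per2 at 30.8, 63.0 and 49.7 CPM, Cry2 at 4.96, 10.6 and 8.20 CPM and Dbp at 0.899, 2.58 and 2.25 CPM. Of 11 clock genes, 8 were lowest in replicate 1. The other 3, Arntl (16.7, 12.5 and 12.4 CPM), Nr1d1 (27.5, 20.4 and 20.1 CPM) and Clock (95.4, 91.7 and 84.1 CPM), were highest in it. The time of day of collection was not given in the sources used here.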

How the data were processed

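Lung macrophages of 3 air-exposed mice were used, grouped by label; the other 6 samples were not used here. Per the labels' protocols, RNA integrity was 8.8 or better and a stranded kit for total RNA was used. Trimmomatic 0.39, Salmon, FastQC and DESeq2 and the build GRCm38.p6 are named in the submitters' processing notes; for other versions and the strand setting the sources used here give nothing. The authors deposited estimated counts for each gene, not scaled to library size, of which 80.5% to 81.4% are whole numbers. Symbols, coordinates and exon lengths came from GENCODE M21, which matched 54107 of 54281 identifiers, and promoters from RefSeq. Overlapping, antisense and near-identical genes are uncertain; the share of 31-base words that a gene's transcripts share with other genes is given for some.

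Counts were divided by the sample total (CPM) and by the length of all exons merged (CPM per kb). Spread was taken as CV and as highest over lowest sample, for genes with a mean of 5 CPM or more, in Python 3.11.15; edgeR 4.0.16 and DESeq2 1.42.0 (R 4.3.3) served for other scalings of estimated counts rounded to whole numbers. The procedure was tested on simulated data. The 68 gene lists held 1408 symbols, of which 1400 matched; the members and lists were chosen with earlier results of these data known. Named are the 30 genes highest in CPM, from each list up to 6 detected members highest per kb, up to 3 others with a 2-fold range and up to 4 examples below 0.1 CPM, the 20 genes of widest range without a clone or pseudogene name, 6 markers, Xist and Y-linked genes; not every one is given, and others are said to have been chosen after their values were seen. Each sample is described as a separate mouse of the group, and spread between them may also be technical.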

Additional observations from a re-analysis of the deposited data

How the results depend on the processing

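With 1 group of 3 samples nothing was tested, and no paired analysis was possible because the results come from no test and no 2 groups were compared. The number of detected genes, 11859, lay between 11596 and 12898 under every alternative tried. The median CV of 5.98% was 5.99% with TMM factors, 5.99% with DESeq2 size factors, 6.03% with mitochondrial and the 10 most abundant genes left out of the total, 6.78% for genes of 1 CPM or more, 5.34% for those of 20 CPM or more, and 3.79% to 5.92% with 1 sample left out. The 25 genes with a 3-fold range became 100 from 1 CPM and 4 from 20 CPM, 71 with a 2-fold and 15 with a 4-fold limit, 24 with either other scaling, and 5 to 21 with 1 sample left out (5 without air replicate 3, 16 without replicate 2). The share of the 100 highest genes was 23.5% with mitochondrial genes left out, 24.5% to 24.7% with 1 sample left out, and 24.6% as reported; the mitochondrial share stayed between 2.77% and 2.85%.

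Levels per kb depended on the length used. Of 360 named list members, 66 moved by over 1.5-fold with the longest transcript and 258 with the mean transcript length, while 2, 4 and 17 did so when replicate 1, 2 or 3 was left out. The member leading per kb was the same under all 3 lengths in 48 of 66 lists. With 52 to 60 counts for 1 CPM, single counts decide values below 0.1 CPM.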
